A study of Arabidopsis thaliana with 4 samples.

Results

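Of 10 Arabidopsis thaliana genes for cytokinesis and the mitotic spindle, 9 had values in the deposited tables, and each of the 9 was more abundant after 4 days on callus inducing medium than before culture in both genotypes. Because only genes over an 8-fold increase were listed, this direction was fixed by the listing, except for PAKRP1 in lbd16-2. The genes were chosen by locus identifier: KN (AT1G08560), PLE (AT5G51600), HIK (AT1G18370), TES (AT3G43210), PAKRP1 (AT4G14150), PAKRP1L (AT3G23670), PAKRP2 (AT4G14330), POK2 (AT3G19050), ATK5 (AT4G05190) and EDE1 (AT2G44190). TES was in none of the 4 tables and has no value here. The tables held 2773 genes in all, 2175 of them with values in all 4 libraries. RNA came from leaf explants of lbd16-2, a mutant of the gene for the auxin-induced LOB-domain transcription factor LBD16, and of wild type Col-0. Each genotype was sampled after 4 days on the medium in darkness, when the labels describe leaf explants with callus, and at day 0. The explants were the first leaf pair of 12-day-old plants, and there was 1 library for each genotype and day. No difference below has a replicate check, no p-value was computed, and the intervals in parentheses are 95% counting intervals that cover counting error only.

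A dividing plant cell builds its new wall from the inside. After the spindle has separated the chromosomes, a microtubule array called the phragmoplast guides Golgi-derived vesicles to the midplane, where they fuse into a cell plate that grows outward to the parental wall. KN encodes the cytokinesis-specific syntaxin that fuses those vesicles, PLE a MAP65 protein that crosslinks phragmoplast microtubules at the midzone, and HIK and TES the NACK-type kinesins that activate a MAP kinase cascade for phragmoplast expansion. PAKRP1 and PAKRP1L are kinesin-12 proteins of the phragmoplast midzone, PAKRP2 is a kinesin on phragmoplast vesicles, and POK2 is a kinesin-12 that helps to hold the division plane. ATK5 is a minus-end-directed kinesin that focuses the spindle, and EDE1 is a microtubule-binding protein of the mitotic spindle and phragmoplast. Many such genes are transcribed around mitosis, through an upstream element with the core AACGG that is bound by three-repeat MYB proteins.

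The upstream letters are shown because this core is the known shared feature of genes of this kind. The letters AACGG were searched on both strands, so that CCGTT counts as a match, in the 250 bases before the annotated start of each gene, with sequence and gene starts from RefSeq TAIR10.1. The submitters' notes name TAIR10, and the deposited tables hold no coordinates. A match was found for 7 of the 10 genes, against 20.6% of 27443 protein-coding genes. At least 2 matches, counted for PLE, TES and PAKRP1L, were found in 3.62% of the protein-coding genes. A match is a description of these letters, and ATK5, EDE1 and PAKRP2 had none in this window. Each match is given below with 6 bases on either side, read 5′ to 3′ on the strand that holds AACGG, which is in capitals.

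KN, chr1:2711002-2711018, minus strand: gacgacAACGGatacat
PLE, chr5:20964652-20964668, plus strand: cctatgAACGGttcaga
PLE, chr5:20964626-20964642, minus strand: tatctcAACGGtaggga
HIK, chr1:6324379-6324395, plus strand: acctctAACGGctagtt
TES, chr3:15190583-15190599, minus strand: aggcacAACGGtcatat
TES, chr3:15190739-15190755, minus strand: aaccaaAACGGgtttat
PAKRP1, chr4:8165296-8165312, plus strand: gaatccAACGGagggaa
PAKRP1L, chr3:8519019-8519035, plus strand: aactcaAACGGtcgaac
PAKRP1L, chr3:8519058-8519074, minus strand: agatctAACGGataaga
PAKRP1L, chr3:8519083-8519099, plus strand: acgatcAACGGagaata
POK2, chr3:6577590-6577606, minus strand: tattcaAACGGctaaga

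The matches of KN and HIK lay closest to the start, centred 10 and 9 bases before it, and the others lay between 39 and 195 bases before it. The window of POK2 lay almost wholly within the annotated non-coding RNA gene AT3G03795, by 240 of 250 bases. Of the genes without a match, PAKRP2 had a window that overlapped AT4G14320 by 121 bases, and that of EDE1 overlapped AT2G44180 by 73 bases. The paralogues PAKRP1 and PAKRP1L are the pair of which 1 was listed in wild type alone, so their whole upstream windows are printed, on the strand of the gene and with the matches in capitals. The 1 match of PAKRP1 stands beside 3 in PAKRP1L. Any link between matches and listing was not tested, and ATK5, EDE1 and PAKRP2, without a match, were in both lists.

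PAKRP1, chr4:8165215-8165464, minus strand: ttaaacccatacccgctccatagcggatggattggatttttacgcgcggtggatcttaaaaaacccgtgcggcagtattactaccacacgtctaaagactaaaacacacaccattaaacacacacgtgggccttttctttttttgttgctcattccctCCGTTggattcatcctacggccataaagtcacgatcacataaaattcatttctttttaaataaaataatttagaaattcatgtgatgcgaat
PAKRP1L, chr3:8518886-8519135, plus strand: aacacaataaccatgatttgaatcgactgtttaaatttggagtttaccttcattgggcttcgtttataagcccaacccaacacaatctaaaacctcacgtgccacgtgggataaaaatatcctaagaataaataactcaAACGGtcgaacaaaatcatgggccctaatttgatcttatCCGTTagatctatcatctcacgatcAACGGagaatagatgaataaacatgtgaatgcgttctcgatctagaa

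**Figure D1:**
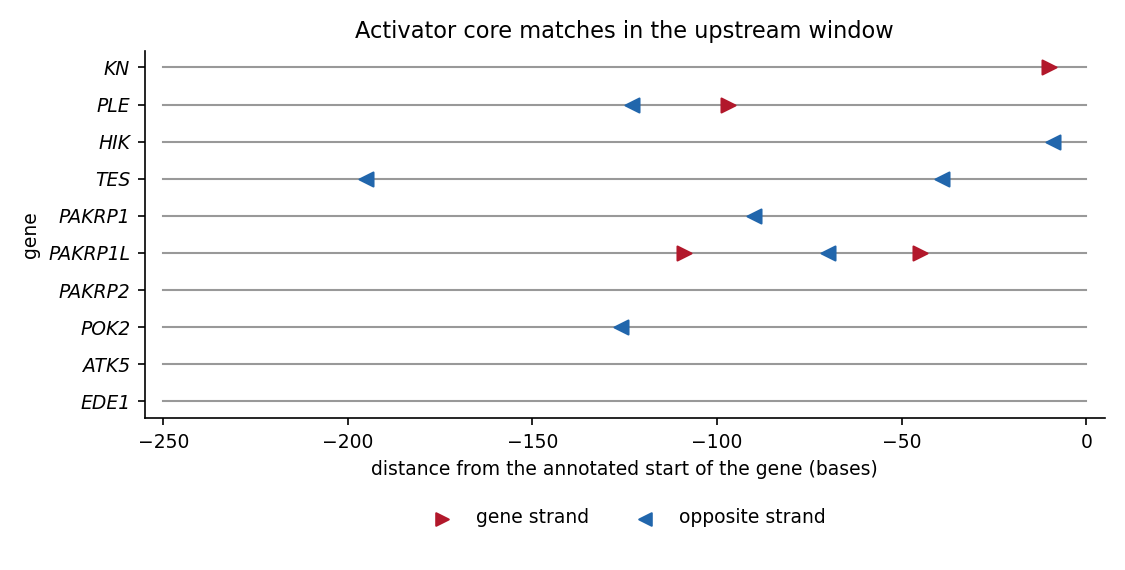
Positions of AACGG matches in the 250 bases before the annotated start of each of the 10 genes. The x axis is the distance from the start in bases, each line is 1 gene, and the arrowheads show matches on the gene strand (red, pointing right) or the opposite strand (blue, pointing left). PAKRP1L has 3 matches, PLE and TES 2 each, and PAKRP2, ATK5 and EDE1 none.

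The libraries set the precision of what follows. Levels are normalised reads, which are reads divided by 1 size factor for the library. The size factors were 1.68 for lbd16-2 at day 4, 1.08 for lbd16-2 at day 0, 1.41 for wild type at day 4 and 1.43 for wild type at day 0. Total depth is unknown, because the tables hold only genes above the authors' limit of an 8-fold increase. The LBD16 gene (AT2G42430) had 518 (day 4) and 34.3 (day 0) normalised reads in the libraries labelled lbd16-2, against 981 (day 4) and 20.9 (day 0) in wild type. Summed reads do not show whether its transcript is intact, so directions between genotypes rest on the labels. The 5 leaf mesophyll genes fixed as markers, among them RBCS1A and LHCB1.1, were in neither list of increased genes, so the leaf label could not be checked against their levels. In whole explants, more dividing cells and more of these transcripts in each dividing cell cannot be told apart.

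The first question was which of these genes increased by over 8-fold during culture. In lbd16-2, 8 of the 10 were in the authors' list, which held 9.18% of the 24518 genes the authors tested. In wild type, 9 of the 10 were listed, where the list held 8.91% of 24442 genes. PAKRP1 was in the wild-type list alone, and all other listed members were shared. None was listed in lbd16-2 alone. Because a table lists only genes over the limit, the direction of each listed change is fixed by the listing and its fold cannot lie under 8 by the authors' measure. This does not hold for PAKRP1 in lbd16-2, whose values are there through wild type.

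**Figure D2:**
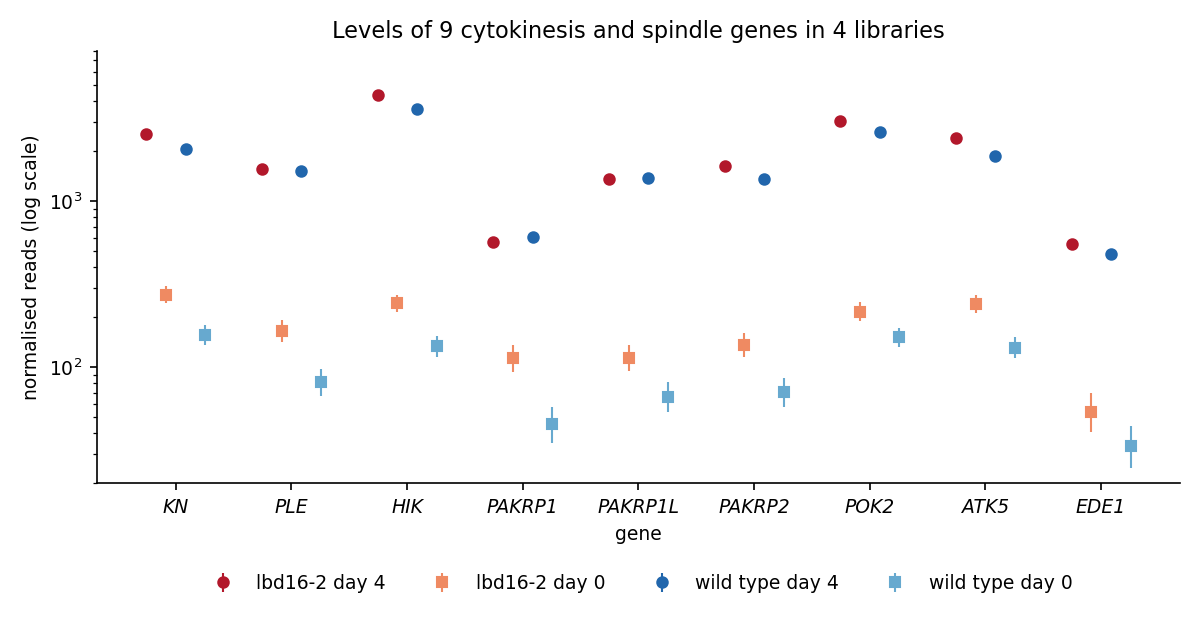
Normalised reads (log scale) of the 9 genes with values in the 4 libraries, with exact Poisson 95% counting intervals, which are narrower than the symbols at day 4. Circles are day 4 and squares day 0, lbd16-2 is red or orange and wild type is blue. For every gene both day 4 values lie above both day 0 values, and the lbd16-2 day 0 value lies above the wild-type day 0 value. Listing fixes the increase within each genotype, except for PAKRP1 in lbd16-2.

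KN (chr1:2709525-2711000, minus strand, 2 exons), the cell plate syntaxin gene, had 2516.5 (day 4) and 273 (day 0) normalised reads in lbd16-2, against 2063 (day 4) and 156 (day 0) in wild type. Its fold over 4 days was 9.23 (8.20 to 10.4) in lbd16-2 and 13.2 (11.5 to 15.2) in wild type. KN thus lay at the low end of the folds in both genotypes, while its level per length was the highest. Its transcript of 1386 bases overlaps the gene span of AT1G08550, on the other strand, by 464 bases. Without stated use of strand, the reads of the overlap cannot be assigned to one of them. AT1G08550, annotated as non-photochemical quenching 1, was not listed, so its level is not known here.

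PLE (chr5:20960779-20964537, minus strand, 12 exons), which encodes the midzone crosslinker MAP65-3, had 1555 (day 4) and 166 (day 0) normalised reads in lbd16-2, against 1511 (day 4) and 81.6 (day 0) in wild type. The day 4 levels were close. Its fold was 9.37 (8.05 to 11.0) in lbd16-2 and 18.5 (15.4 to 22.5) in wild type, beside a day 0 level in lbd16-2 that was 2.03 times that in wild type (1.60 to 2.59).

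HIK (chr1:6319450-6324378, minus strand, 15 exons), the kinesin gene that starts the cytokinetic MAP kinase cascade, reached the highest read count and the largest fold of the 9. It had 4346 (day 4) and 242 (day 0) normalised reads in lbd16-2, against 3569 (day 4) and 134 (day 0) in wild type. Its fold was 18.0 (15.9 to 20.4) in lbd16-2 and 26.6 (23.1 to 30.9) in wild type. TES (chr3:15190786-15196215, plus strand, 14 exons), its close relative known from cytokinesis after male meiosis, was not in the tables.

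The midzone kinesin-12 pair held the 1 gene that was listed in wild type alone. PAKRP1 had 567 (day 4) and 113 (day 0) normalised reads in lbd16-2, against 603 (day 4) and 45.3 (day 0) in wild type. PAKRP1 lies at chr4:8158436-8165214 on the minus strand and PAKRP1L at chr3:8519136-8525289 on the plus strand, each with 16 exons. The fold of PAKRP1 was 5.01 (4.15 to 6.10) in lbd16-2, under the 8-fold limit with its whole counting interval, and 13.3 (10.3 to 17.4) in wild type. PAKRP1L had 1357 (day 4) and 114 (day 0) normalised reads in lbd16-2, against 1376 (day 4) and 66.3 (day 0) in wild type. Its fold was 11.9 (9.92 to 14.4) in lbd16-2 and 20.8 (16.9 to 25.8) in wild type.

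Per length, PAKRP1 and PAKRP1L were at the same level in lbd16-2 before culture, at 26.4 and 26.3 normalised reads per kb of mRNA. At day 4 in lbd16-2 PAKRP1 had 132 and PAKRP1L 313 per kb. In wild type PAKRP1 had 140.4 per kb at day 4 and 10.6 at day 0, and PAKRP1L had 318 at day 4 and 15.3 at day 0. The day 4 levels of each gene were thus close between the genotypes. The day 0 level of PAKRP1 was 2.50 times as high in lbd16-2 (1.83 to 3.43). Its listing in wild type alone already requires a day 0 ratio of lbd16-2 to wild type above the day 4 ratio, which was 0.941. The listing thus favours a high day 0 ratio but does not by itself require one above 1.

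PAKRP2 (chr4:8244053-8247494, plus strand, 6 exons), whose kinesin moves with phragmoplast vesicles, had 1625 (day 4) and 136 (day 0) normalised reads in lbd16-2, against 1353 (day 4) and 70.5 (day 0) in wild type. Its fold was 11.9 (10.1 to 14.2) in lbd16-2 and 19.2 (15.7 to 23.7) in wild type. POK2 (chr3:6577724-6590253, plus strand, 37 exons), the kinesin gene of the division plane, had 3016 (day 4) and 216 (day 0) normalised reads in lbd16-2, against 2594 (day 4) and 151 (day 0) in wild type. Its folds, 14.0 (12.2 to 16.0) in lbd16-2 and 17.1 (14.9 to 19.7) in wild type, were the closest of the 9 between the genotypes.

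The 2 genes with spindle roles, ATK5 and EDE1, had folds within the range of the phragmoplast genes in both genotypes. ATK5 (chr4:2675064-2680214, plus strand, 18 exons) had 2382 (day 4) and 239 (day 0) normalised reads in lbd16-2, against 1871 (day 4) and 131 (day 0) in wild type. Its fold was 9.95 (8.77 to 11.3) in lbd16-2 and 14.3 (12.3 to 16.6) in wild type. Its transcript overlaps the gene span of AT4G05200, a listed receptor-like kinase gene on the other strand, likewise by 464 bases. AT4G05200 had 39.2 (day 4) and 0 (day 0) normalised reads in lbd16-2, against 14.9 (day 4) and 0.698 (day 0) in wild type, far below ATK5.

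EDE1 (chr2:18272119-18274679, plus strand, 6 exons) had the fewest normalised reads of the 9 at both days in both genotypes. It had 549.9 (day 4) and 53.8 (day 0) normalised reads in lbd16-2, against 479 (day 4) and 33.5 (day 0) in wild type. Its fold was 10.2 in lbd16-2, with an interval that reaches below the 8-fold limit (7.84 to 13.6), and 14.3 (10.7 to 19.6) in wild type.

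**Figure D3:**
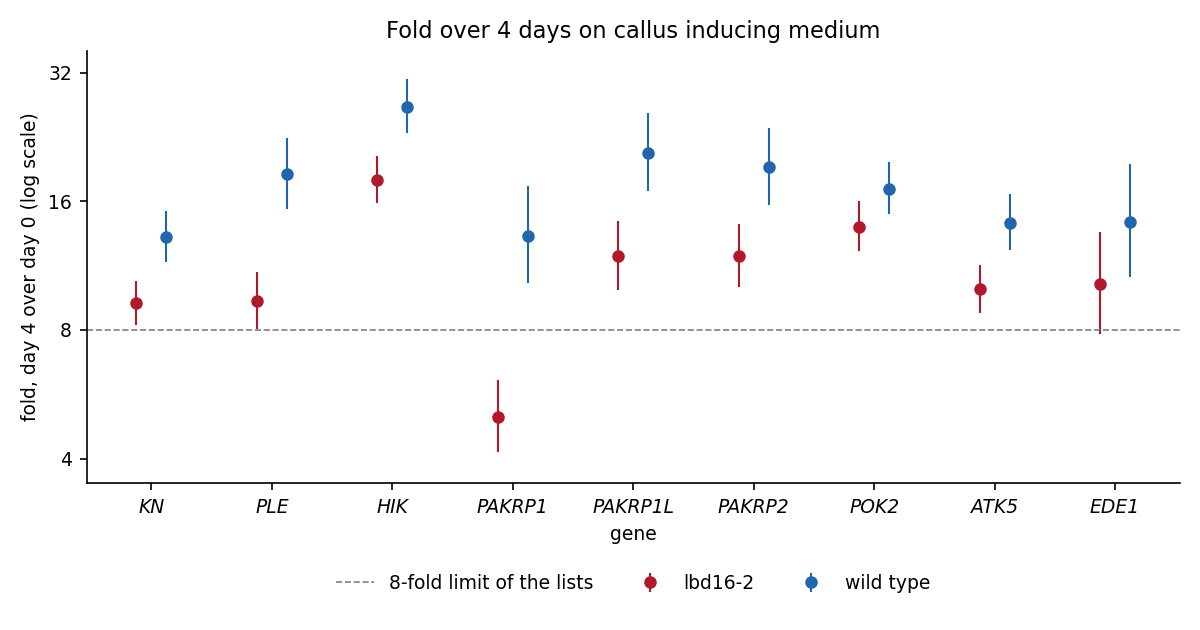
Fold of day 4 over day 0 (log scale) for each of the 9 genes in lbd16-2 (red, left) and wild type (blue, right), with exact binomial 95% counting intervals. The dashed line is the 8-fold limit of the authors' lists. Every wild-type fold lies above it, as listing requires, and PAKRP1 in lbd16-2, at 5.01, is the 1 fold below it. Every wild-type fold also lies above the lbd16-2 fold of the same gene. After centring on the genes of both lists this did not hold for POK2, and for EDE1 it depended on the median used.

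Over the 9 genes the median fold was 10.2 in lbd16-2 and 17.1 in wild type. The same medians over the 698 genes with 4 values and at least 10 reads at day 0 in both genotypes were 11.6 and 17.3. In the authors' deposited table the p-value was under 0.05 for 6 of the 9 genes in lbd16-2 and for 9 of 9 in wild type, while the FDR was under 0.05 for 0 in either genotype. Over all genes of each list in the authors' deposited table, the p-value was under 0.05 for 42.2% in lbd16-2 and 50.3% in wild type, and the FDR for 8.97% in lbd16-2 and 11.5% in wild type. The lowest FDR of the 9 in the authors' deposited table was that of HIK, at 0.451 in lbd16-2 and 0.192 in wild type.

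Normalised reads per kb of the longest annotated mRNA put the genes in nearly the same order in both day 4 libraries. At day 4 in lbd16-2 KN came first with 1816 per kb, followed by HIK with 1251, ATK5 with 752, PLE with 569, PAKRP2 with 543, POK2 with 348, PAKRP1L with 313, EDE1 with 275 and PAKRP1 with 132. In that library only the neighbours PLE and PAKRP2 had overlapping counting intervals. At day 4 in wild type the order was the same but for PAKRP1L (318 per kb) and POK2 (299), which changed places with overlapping intervals. The intervals of ATK5 (590.3) and PLE (553) also overlapped there.

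At day 0 KN again stood first, at 197 per kb in lbd16-2 and 113 in wild type. At both days the KN level could include reads of AT1G08550 from the overlap described above. ATK5 and HIK followed with overlapping intervals, at 75.5 and 69.7 per kb in lbd16-2 and 41.4 and 38.6 in wild type. The 4 lowest genes, EDE1, PAKRP1, PAKRP1L and POK2, had intervals that each overlapped that of the next gene in both genotypes. They ranged between 24.9 and 26.9 per kb in lbd16-2 and between 10.6 and 17.5 in wild type. No stretch of 50 bases of any of the 10 mRNAs was found in an mRNA of another annotated gene, read on its own strand. Opposite strands and non-coding transcripts were not searched. The POK2 transcript overlaps the span of AT3G03795, on the same strand, by 70 bases. The read length, and how reads with several matches were counted, were not stated in the sources used here.

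The next question was how the genotypes differed at each day. At day 4, 6 of the 9 genes were higher in lbd16-2 by more than counting error, and the other 3 were not separated. The ratio of lbd16-2 to wild type was 1.27 (1.21 to 1.34) for ATK5, 1.22 (1.16 to 1.28) for KN, 1.22 (1.17 to 1.26) for HIK, 1.20 (1.13 to 1.27) for PAKRP2, 1.16 (1.11 to 1.21) for POK2 and 1.15 (1.04 to 1.27) for EDE1. For PLE (1.03, 0.971 to 1.09), PAKRP1L (0.986, 0.928 to 1.05) and PAKRP1 (0.941, 0.857 to 1.03) the counting interval held 1. None of the 9 was 1.5-fold higher or 1.5-fold lower in lbd16-2 at day 4. Of the 1301 genes whose day 4 mean was 100 normalised reads or more, 48.6% were at least 1.5-fold higher or lower. The median ratio was 1.16 over the 9 genes and 0.963 over the 1301, which hold genes listed in wild type alone but none listed in lbd16-2 alone and so lean to lower ratios. Over the 484 genes of both lists with at least 10 reads at day 0 in both genotypes, the median ratio at day 4 was 1.15, about that of the 9 genes. A day 4 ratio above 1 was found for 7 of the 9, for 304 of these 484 and for 356 of the 698 genes. How many of all genes had a counting interval above 1, at either day, was not computed.

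At day 0 all 9 genes had a higher level in lbd16-2, as did 81.5% of the 698 genes with at least 10 reads at day 0 in both genotypes. All 9 counting intervals lay above 1. PAKRP1 had the highest ratio and PLE the next, both given above. The ratio was 1.93 (1.49 to 2.52) for PAKRP2, 1.82 (1.51 to 2.21) for ATK5, 1.81 (1.49 to 2.19) for HIK, 1.74 (1.46 to 2.09) for KN, 1.72 (1.31 to 2.27) for PAKRP1L, 1.61 (1.08 to 2.41) for EDE1 and 1.43 (1.18 to 1.73) for POK2. Thus 8 of the 9 were at least 1.5-fold higher in lbd16-2, as were 52.0% of the 698 genes. After centring on the genes of both lists, described next, this held for 1 of the 9, PAKRP1, against 23.4% of the 698.

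**Figure D4:**
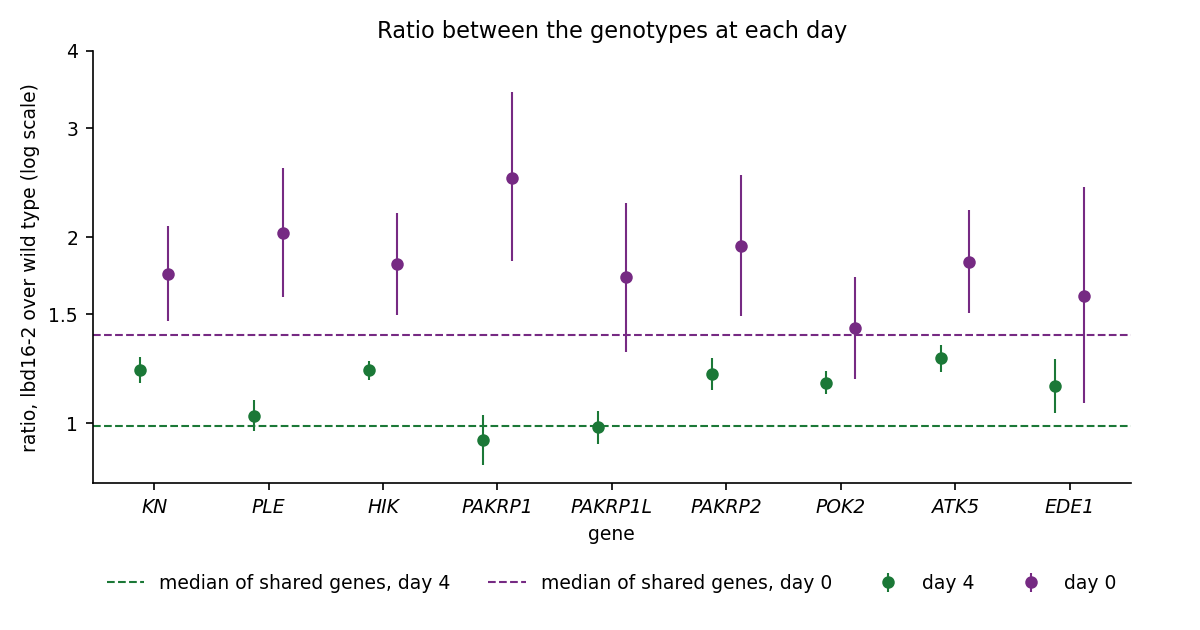
Ratio of lbd16-2 over wild type (log scale) for each of the 9 genes at day 4 (green, left) and day 0 (purple, right), with exact binomial 95% counting intervals. Dashed lines are the median ratios of the genes in both lists whose mean that day was 20 normalised reads or more. Day 4 ratios lie between 0.941 and 1.27, and day 0 ratios between 1.43 and 2.50, all above the day 0 line.

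Genes of both lists with enough reads at day 0 were mostly higher in lbd16-2 there. Over the 376 genes of both lists whose day 0 mean was 20 normalised reads or more, the median ratio was 1.39, and the corresponding log2 difference at day 4 was -0.012 over 1536 genes. Relative to this median, the day 0 ratios of the 9 genes ran from 1.03 for POK2 to 1.80 for PAKRP1, with a median of 1.30. All 9 remained above this median, as did 58.6% of the 698 genes, and the counting interval did so for 6 of the 9. The share of the 698 whose interval did so was not computed. The intervals of PAKRP1L, POK2 and EDE1 did not. Over all 1657 genes of both lists, most of them with few reads at day 0, 649 had a day 0 ratio above 1. Genes without wild-type reads at day 0 have no ratio and are not among the 649, even where lbd16-2 had reads. The median of the ratios that exist was 1.18. With 1 library per group, a difference between the plants and one between the libraries cannot be told apart.

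**Figure D5:**
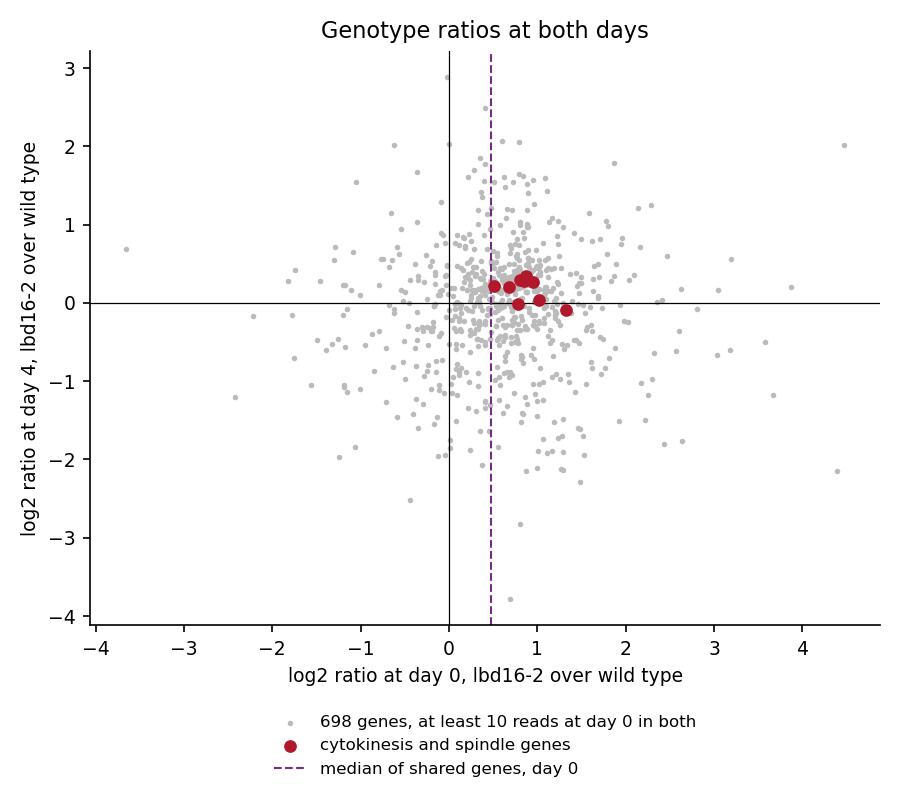
Log2 ratio of lbd16-2 over wild type at day 4 (y axis) against that at day 0 (x axis) for 698 genes with at least 10 reads at day 0 in both genotypes (grey), with the 9 cytokinesis and spindle genes in red. The dashed line is the day 0 median of shared genes, at 0.47. The 9 genes lie close together within a much wider cloud, at -0.09 to 0.35 on the y axis and at 0.51 to 1.32 on the x axis.

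Every one of the 9 genes had a smaller fold in lbd16-2. When the differences of log2 folds were centred on their own median over the genes of both lists, the direction turned for POK2 alone. A smaller fold in lbd16-2 was also found for 75.9% of the 698 genes. The difference of log2 folds, lbd16-2 minus wild type, was -1.40 (-1.86 to -0.95) for PAKRP1, -0.98 (-1.33 to -0.64) for PLE, -0.80 (-1.20 to -0.41) for PAKRP1L and -0.69 (-1.06 to -0.31) for PAKRP2. It was -0.57 (-0.84 to -0.30) for HIK, -0.52 for both ATK5 (-0.80 to -0.24) and KN (-0.78 to -0.26), and -0.30 (-0.57 to -0.02) for POK2. For EDE1 the interval held 0 (-0.48, -1.05 to 0.08). The fold was at least 1.5-fold smaller in lbd16-2 for 4 of the 9 genes, against 49.1% of the 698 genes. The median difference was -0.57 over the 9 genes and -0.57 over the 698. All of the 698 were over the limit in wild type, and none comes from the lbd16-2 list alone, which by itself favours smaller folds in lbd16-2. The median used for centring the differences was -0.319 over all 1657 genes of both lists, most of them with few reads at day 0. After centring on it, the difference was 0.023 for POK2 and below 0 for the other 8, as for 61.9% of the 698 genes. The counting interval lay below 0 for 3 of the 9 after centring, against 8 before it. For the 698 genes these interval counts were not computed, so they are not shown to be particular to the 9. A fold at least 1.5-fold smaller in lbd16-2 was then left for 2 of the 9, PLE and PAKRP1, and for 36.7% of the 698. These counts depend on the median used, because the ratios above were centred on separate medians for each day. Relative to those, EDE1 stood at 1.158 at day 4 and 1.156 at day 0, which is no smaller fold in lbd16-2.

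Other genes of the pathway were listed in part. Of 30 other phragmoplast, cell plate and division site genes, 5 were in the lbd16-2 list and 7 in the wild-type list, where the lists held 9.18% and 8.91% of the genes tested. The KN partners KEU, SNAP33, NPSN11, SYP71, VAMP721 and VAMP722, which help the same fusion step, were in neither list. MAP65-1, MAP65-2, MAP65-4 and MAP65-5, relatives of PLE, were in neither list. These genes therefore have no values here, and whether they increased by less than 8-fold or decreased is not shown by the lists.

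The kinase cascade downstream of HIK was listed in part. MKK6, the MAP kinase kinase of this cascade, had 1520.1 (day 4) and 113 (day 0) normalised reads in lbd16-2, against 1017 (day 4) and 60.7 (day 0) in wild type. Its day 4 ratio of 1.49 (1.40 to 1.59) was above that of HIK. ANP3, a MAP kinase kinase kinase, had 1399 normalised reads at day 4 in lbd16-2 and 1211 in wild type, and its relative ANP2, in the wild-type list alone, had 517 and 441. ANP1 and the MAP kinase gene MPK4 were in neither list. TIO, a kinase of phragmoplast expansion, had 1705 normalised reads at day 4 in lbd16-2 and 1426 in wild type.

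POK1, the partner of POK2 at the division site, was in the wild-type list alone, with folds of 6.98 in lbd16-2 and 8.25 in wild type, on either side of the limit. The kinesin genes AT3G20150 and AT3G44050 had 1984 and 1805 normalised reads at day 4 in lbd16-2, and 1689 and 1620 in wild type. All 7 listed genes of this group had a higher day 4 level in lbd16-2, with a median ratio of 1.17, close to the 1.16 of the 9 genes above. So had 356 of the 698 genes with at least 10 reads at day 0 in both genotypes (median 1.01). Among the 484 of these in both lists, 304 had a higher level (median 1.15).

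Of 27 other spindle, kinesin and microtubule nucleation genes, 3 were listed, all in both genotypes. This is near the share of all tested genes that were listed, 9.18% in lbd16-2 and 8.91% in wild type. The kinesin gene AT2G28620 had 2794 (day 4) and 275 (day 0) normalised reads in lbd16-2, against 2040 (day 4) and 139.5 (day 0) in wild type. EB1C, whose protein tracks growing microtubule ends in the spindle, had 1650.3 normalised reads at day 4 in lbd16-2 and 1171 in wild type. The kinesin gene AT2G37420 had 1354 and 947 in the same libraries. ATK1, the closest relative of ATK5 in spindle focusing, was in neither list. Nor were the 8 augmin genes AUG1 to AUG8, although EDE1 is a relative of AUG8, or the 6 genes of the gamma-tubulin ring complex and its partners.

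Among 5 regulators of genes of this phase, 2 were listed, in both genotypes, beside 9.18% of all tested genes in lbd16-2 and 8.91% in wild type. MYB3R4, a three-repeat MYB activator, had 1902 (day 4) and 183 (day 0) normalised reads in lbd16-2, against 1322 (day 4) and 126 (day 0) in wild type. SCL28, a GRAS-type regulator, had 2757 (day 4) and 158 (day 0) normalised reads in lbd16-2, against 2577 (day 4) and 74.7 (day 0) in wild type. The activator MYB3R1 and the repressors MYB3R3 and MYB3R5 were in neither list. The AACGG core was within 250 bases of the start in 4 of these 5 genes, in 8 of the 30 phragmoplast and 4 of the 27 spindle genes, and in 20.3% of the 2684 protein-coding genes that were listed.

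A list of 18 mitotic genes (cyclins, kinases, the spindle factor TPX2 and the CDC20 genes of the anaphase-promoting complex) is set beside the cytokinesis and spindle genes. Of the 18, 15 were in the lbd16-2 list and 18 in the wild-type list, with median folds of 12.0 and 15.4. The lists held 9.18% and 8.91% of all tested genes. Their median ratio of lbd16-2 to wild type was 1.25 at day 4 and 1.76 at day 0, beside 1.16 and 1.81 for the 9 genes. At day 4 in lbd16-2 the highest levels were those of CDC20.1 with 3380.3 normalised reads and CDKB2;1 with 2697, and wild type had 2934 and 2053 of the same genes. TPX2 had 2399 normalised reads at day 4 in lbd16-2 and 2181 in wild type, AUR1 2125 and 1654, and CDC20.2 1774 and 1561. CDC20.1 and CDC20.2 are near-identical neighbours, so the division of reads between them is uncertain. The core was found upstream of 11 of the 18.

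Likeness of pattern was measured as the distance between log2(normalised reads + 1) values over the 4 libraries, after the mean of each gene was removed, to the mean pattern of the 9 genes. Among 1292 other genes whose day 4 mean was 100 normalised reads or more, the nearest were the receptor-like kinase gene AT1G66830 (distance 0.082), the SAP-domain gene AT5G66840 (0.114), the cyclin gene CYCB1;2 (0.119), the reticulon gene AT2G20590 (0.138) and the MADS-box gene SHP1 (0.148). Of the 9 genes themselves PLE was nearest to their mean at 0.146, and HIK (0.719) and PAKRP1 (0.805) were farthest. CYCB1;2 had 2416 (day 4) and 245 (day 0) normalised reads in lbd16-2, against 2097 (day 4) and 137 (day 0) in wild type. These 4 values per gene share their libraries and depth, and the distances are a description.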

How the data were processed

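TAIR10 is the build in the submitters' processing notes, and DESeq, Cufflinks, STAR, Trim Galore and FastQC are the tools, with no version, setting, strand use or read length stated in the sources used here. The authors deposited 4 tables of genes with a log2 fold above 3: the increased genes of each genotype, those of wild type alone and those shared. The deposited levels are log2 values, inferred from the values to be log2(normalised reads + 1). When undone and multiplied by a size factor for the library, 100% of values came out whole within 0.001 reads. Each deposited p-value and FDR is the authors', by a procedure for single libraries that the sources used here do not state. The deposited ratio of folds was not used for results. The number of genes tested by the authors was inferred as the total that most often turns FDR-to-p ratios into whole ranks, 54.4% for lbd16-2 and 53.1% for wild type, against 25.2% and 26.9% for the next best total.

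From the recovered reads, normalised reads, folds and ratios without a pseudocount were computed, with exact binomial intervals for ratios of 2 libraries. Differences of log2 folds have normal intervals with 0.5 added to each read count. PCR reads without molecular identifiers are not independent, so all intervals cover counting error only. Gene starts, mRNA lengths and sequences are from RefSeq TAIR10.1, in which all 10 members and all genes of the other lists matched by locus identifier. The genes named were all members, up to 6 of each other list by wild-type day 4 level, and the 5 nearest in pattern. ANP2, AT4G05200 and the genes named as listed in neither genotype fall outside that rule and were named after their values were seen. The members and lists were chosen with earlier results of these data known. The recovery of reads and the intervals were tested on simulated reads with counting error only. That test says nothing about differences between libraries or plants. Python 3.11.15, NumPy 2.4.6, pandas 2.3.3 and SciPy 1.17.1 were used. Genes listed in lbd16-2 alone had no wild-type value analysed here. Alternatives were 1 or 5 normalised reads added, levels centred on the genes of both lists, a filter on day 0 reads, a 16-fold limit, the authors' FDR, a 150-base window and a longer motif.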

Additional observations from a re-analysis of the deposited data

How the results depend on the processing

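Adding 1 normalised read to the folds, or 5 to the folds, the ratios and the differences of folds, moved no single gene beyond its counting interval. With 5 added, the median fold was 9.77 in lbd16-2 and 16.6 in wild type. No interval was computed for the medians. A filter of 10 reads at day 0 removed none of the 9 genes and so says nothing. Centring on the shared genes lowered the median day 0 ratio to 1.30, brought the median difference of log2 folds nearer to 0, at -0.25, and turned the difference of POK2 to 0.023. Differences of folds were centred on their own median, not on the medians used for the ratios. Centring left the median day 4 ratio at 1.17, against 1.16 without it. At a limit of 16-fold, 1 of the 10 genes was listed in lbd16-2 and 5 in wild type, and in the authors' deposited table the count at an FDR under 0.05 was 0 in lbd16-2 and 0 in wild type. The share of all genes at the 16-fold limit was not computed. A match to AACGG was found for 7 genes within 150 bases, against 14.0% of all protein-coding genes. With CAACGG or TAACGG within 250 bases it was found for 6, against 10.8%. No replicate could be left out, and no paired analysis was possible because each group held 1 library. Precision at day 0, with 48 to 294 reads per gene, limits the ratios and folds.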
